A study of Mus musculus with 12 samples.

Results

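The 9 genes described here make, carry, sense or remove retinoic acid: the retinal dehydrogenases Aldh1a1, Aldh1a2 and Aldh1a3, the retinal reductase Dhrs3, the degrading enzyme Cyp26b1, the carrier Crabp2 and the receptors Rara, Rarb and Rarg. They were taken by symbol from a table of 23337 gene symbols, and the group was chosen by the behaviour of Aldh1a1, which was higher in quiescent cells and lower after knockdown of Stag2. The values of Aldh1a1 are therefore a description and carry no test. All 9 symbols are in the table, and 6 of them passed the filter on low counts.

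The study measured polyadenylated RNA in NU1, a line of wild-type mouse urothelial cells that became immortal by itself during serial passage, to ask how STAG2, a subunit of the cohesin complex, takes part in quiescence. Each of the 4 groups holds 3 libraries, from experiments 5, 7 and 9. Proliferating control cells carried the non-targeting hairpin shNT and proliferating knockdown cells carried sh4, a hairpin against Stag2, both grown in medium with chelated serum, EGF, insulin, T3 and hydrocortisone. Quiescent control cells (shNT) and quiescent knockdown cells (sh4) were grown to confluence in that medium, then given rosiglitazone at 1 µM, an agonist of PPARG, and erlotinib at 0.5 µM, an inhibitor of the EGF receptor, and are labelled as day 7 of differentiation. Confluence, both drugs and quiescence therefore cannot be told apart, and the labels list no retinoid among the supplements. The model is 1 cell line with 1 hairpin, so loss of Stag2 and other effects of that hairpin cannot be told apart. The labels tie an experiment number to a batch and do not say that the cultures came from separate animals. The p-values therefore measure the spread between these libraries.

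Library totals ran from 14524429 to 21987539 counts. Stag2 itself stood at 113 to 145 CPM (counts per 1000000 counts after scaling) in proliferating control, 24.6 to 33.3 in proliferating knockdown, 107 to 128 in quiescent control and 9.43 to 15.3 in quiescent knockdown libraries. Of 13 urothelial markers 10 passed the filter, but Trp63, a marker of basal cells, had no count in any library. The summed urothelial markers ran from 12272 to 17747, 14372 to 16569, 12303 to 19253 and 21414 to 23271 CPM in the same order of groups. Fibroblast markers summed to 2.27 CPM at most, smooth muscle markers to 0.716 and endothelial markers to 0.239. Immune markers summed to 15.5 to 33.2, 26.2 to 55.3, 39.6 to 61.8 and 110 to 169 CPM, carried by Csf1r with group means of 20.8, 35.8, 42.0 and 125 CPM, while Cd3e had no count. The sums of both lists were highest in quiescent knockdown libraries. The urothelial sum is carried by the keratins Krt8 and Krt18 (8909 and 6127 CPM there), while Cdh1 stood at 1303 CPM there against 1921 in quiescent control cells, Epcam was at its lowest mean (456 CPM), and the uroplakin genes Upk1b, Upk2 and Upk3a had group means of at most 0.857 CPM. The part of these markers in the results below was not tested. In bulk RNA, fewer cells of a type and less RNA per cell cannot be told apart.

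Retinol enters cells, is oxidised reversibly to retinal by short-chain dehydrogenases and is then oxidised irreversibly to retinoic acid by the ALDH1A enzymes. Retinoic acid binds the receptors RARA, RARB and RARG, which sit on DNA with RXR partners at paired hexamers, and CYP26 enzymes degrade it. Rarb, Cyp26b1, Crabp2, Dhrs3 and Stra6 are known targets of the pathway in many cells, and retinoids are long known to control the differentiation of urothelium.

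The promoters of Rarb, Aldh1a1 and Aldh1a7 are shown because Rarb holds the textbook response element and because Aldh1a7 is a closely related neighbour of Aldh1a1 whose reads could be mixed up with its own. Sequences are the 150 bases before a RefSeq transcript start on GRCm38.p6, 5′ to 3′ on the strand of the gene. In Rarb (chr14:16575477-16575626, minus strand) capitals mark a direct repeat of 2 hexamers with a spacer of 5 bases (DR5). In Aldh1a1 (chr19:20601818-20601967, plus strand, a start inside the longer annotated gene) and Aldh1a7 (chr19:20727557-20727706, minus strand) capitals mark the reverse complement of the hexamer GGGTCA.
Rarb: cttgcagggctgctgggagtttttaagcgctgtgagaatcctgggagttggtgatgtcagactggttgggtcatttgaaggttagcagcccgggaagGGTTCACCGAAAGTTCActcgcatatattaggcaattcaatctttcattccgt
Aldh1a1: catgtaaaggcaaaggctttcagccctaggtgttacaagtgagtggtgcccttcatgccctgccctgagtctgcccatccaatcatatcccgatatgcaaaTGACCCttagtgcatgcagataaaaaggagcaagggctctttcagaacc
Aldh1a7: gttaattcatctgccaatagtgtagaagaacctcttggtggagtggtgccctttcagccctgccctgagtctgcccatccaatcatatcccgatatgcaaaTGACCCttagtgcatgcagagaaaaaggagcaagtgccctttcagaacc
The repeat of Rarb lies 53 to 37 bases before its start. The longest run shared by the Aldh1a1 and Aldh1a7 windows is 65 bases, from 94 to 30 bases before each start, and it includes the capital hexamer. The search used the hexamers AGGTCA and also AGTTCA and also GGGTCA and also GGTTCA on both strands of the 300 bases around each start, alone or as direct repeats with spacers of 1, 2 or 5 bases (DR1, DR2 and DR5), where a repeat also counts as hexamers. Of 32851 mouse promoter windows, 0.0974% held a DR5, 0.268% a DR2, 0.222% a DR1 and 43.7% at least 1 hexamer. RefSeq windows were matched for 7 of the 9 genes (14 windows), with none for Aldh1a3 and Crabp2, and none of these windows other than that of Rarb held a repeat of the 3 kinds. The other Aldh1a1 window searched (chr19:20492333-20492632, plus strand) is not printed and held no hexamer. A match is a run of letters and shows no binding.

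Among the enzymes of the final step, Aldh1a1 was low in proliferating and higher in quiescent cells, and its level in quiescent cells was lower with the knockdown. The gene (ENSMUSG00000053279) lies at chr19:20492715-20643465 on the plus strand of GRCm38. In proliferating control cells it stood at 5.33, 7.39 and 3.64 CPM in experiments 5, 7 and 9, and in proliferating knockdown cells at 7.29, 6.43 and 4.65. In quiescent control cells the values were 60.7, 65.1 and 85.5 CPM, and in quiescent knockdown cells 26.6, 15.0 and 24.1. The means were 5.45 ± 1.88, 6.12 ± 1.35, 70.4 ± 13.2 and 21.9 ± 6.12 CPM (SD, n = 3). Both quiescent groups lie above both proliferating groups and do not overlap with each other. The fitted log2 fold change with quiescence was 3.69 in control cells (3.48, 3.12 and 4.51 in the 3 experiments) and 1.84 in knockdown cells (1.85, 1.20 and 2.35). Knockdown against control gave −1.68 in quiescent cells (−1.19, −2.11 and −1.82) and 0.17 in proliferating cells, where the groups overlap. The highest level is that of experiment 9 among quiescent controls, which is also the highest of its group for Aldh1a2, Aldh1a3, Dhrs3, Crabp2 and Rarb.

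Aldh1a7 encodes a close relative of ALDH1A1 in rodents and lies next to it at chr19:20692953-20727562, on the minus strand. Its level rose with quiescence in control cells from 0.605 ± 0.224 to 3.70 ± 1.63 CPM (SD, n = 3), or 6.06-fold, with an edgeR adjusted p of 0.00391 (log2 2.60, SE 0.48). It rose in knockdown cells from 0.605 ± 0.132 to 4.39 ± 1.85 CPM, or 7.20-fold, with an edgeR adjusted p of 0.00286 (log2 2.85, SE 0.49). With experiment as a replicate block both rises passed (edgeR adjusted p = 0.000585 and 0.000426). In quiescent cells the counts were 45, 40 and 93 without and 118, 38 and 95 with the knockdown. These groups overlap, and the log2 fold change of knockdown was 0.25 (edgeR adjusted p = 0.882, and 0.729 with the replicate block, SE 0.44). The genes share 151 windows of 50 bases, 3.06% of those of Aldh1a1 and 7.49% of those of Aldh1a7. Reads from these stretches could be assigned to the wrong gene or left out.

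Aldh1a2, the main enzyme of retinoic acid synthesis in the embryo, was near the detection limit. It gave 10, 23 and 15 counts in proliferating control cells and 8, 32 and 40 in proliferating knockdown cells. In quiescent cells it gave 2, 10 and 19 counts in controls and 10, 26 and 66 with the knockdown. The means were 0.914 ± 0.387, 1.56 ± 0.964, 0.628 ± 0.498 and 1.96 ± 1.74 CPM (SD, n = 3), and all 4 groups overlap. In quiescent cells the knockdown library was the higher of the pair in each experiment, opposite to Aldh1a1. The log2 fold change of 1.61 (SE 0.86) did not pass the test (edgeR adjusted p = 0.509). With experiment as a replicate block it was 1.56 (SE 0.46) and did not pass either (edgeR adjusted p = 0.0879).

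Aldh1a3, the third retinal dehydrogenase of the family, was detected mainly in the proliferating cells of experiment 5. Its counts were 173, 7 and 23 in proliferating control cells, 111, 15 and 9 in proliferating knockdown cells, 5, 4 and 22 in quiescent control cells and 2, 1 and 5 in quiescent knockdown cells. The means were 3.81 ± 5.13, 2.63 ± 3.33, 0.634 ± 0.589 and 0.148 ± 0.127 CPM (SD, n = 3), with experiment 5 setting both proliferating means. Within knockdown cells the proliferating and quiescent libraries do not overlap, and the log2 fold change with quiescence was −4.11 (edgeR adjusted p = 0.0655, SE 1.41). With experiment as a replicate block it was −3.93 and passed (edgeR adjusted p = 0.0258), although the experiments ranged from −5.00 through −2.53 to −0.63. No quiescent knockdown library reached the filter's minimum count of 10. Aldh1a3 passed the filter through other libraries, mostly proliferating ones, so this call is no support for a fall. In control cells the log2 fold change with quiescence was −2.56 (edgeR adjusted p = 0.162, SE 1.23), and the groups overlap.

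**Figure D1:**
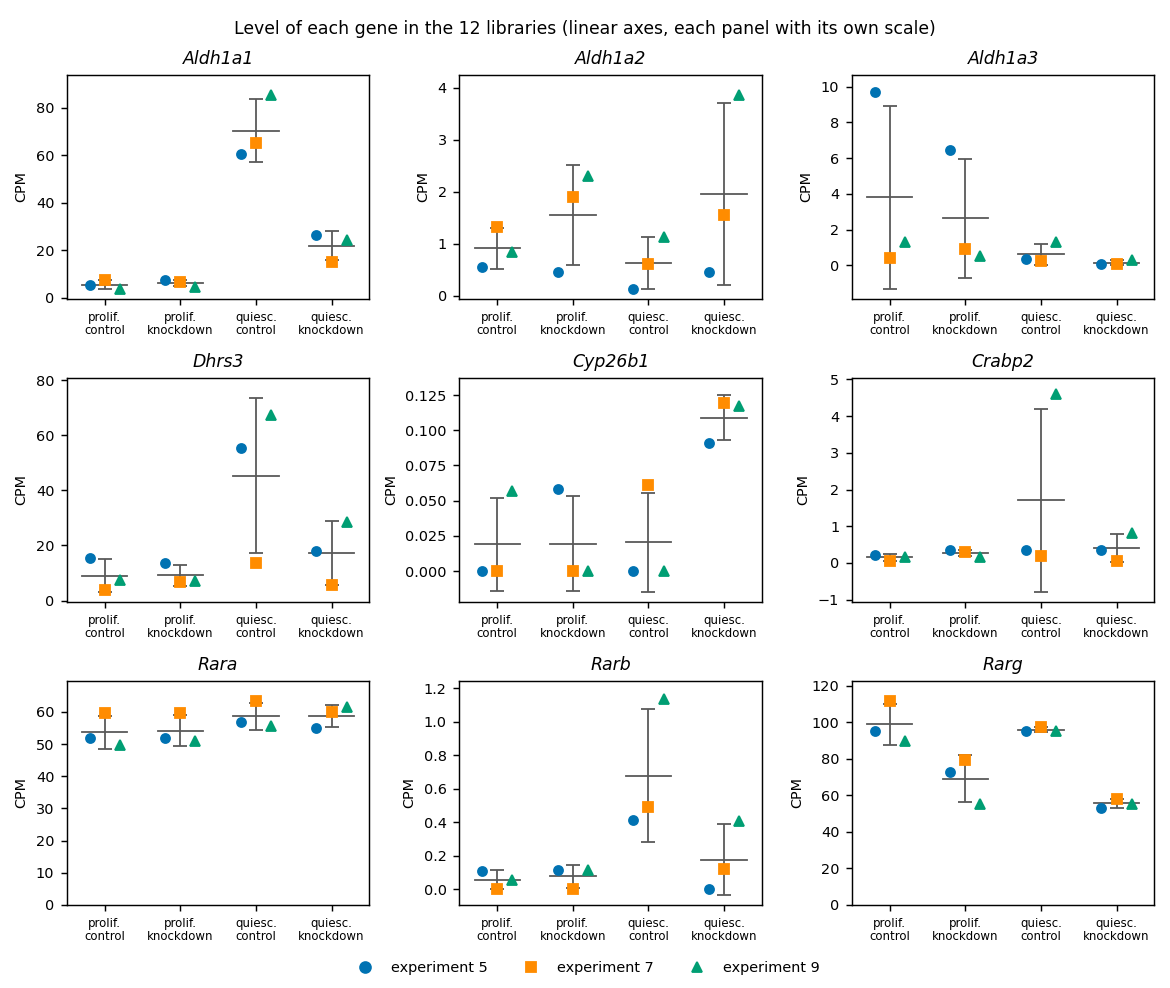
Level of the 9 genes in the 12 libraries, in CPM on linear axes that differ between panels. Symbols are experiments, lines are group means and bars are the SD over 3 libraries, so a bar can reach below 0. Quiescent control libraries of Aldh1a1 stand at 60.7 to 85.5 CPM, Aldh1a3 is highest in experiment 5 of both proliferating groups, and Rarg is lower in both knockdown groups.

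Dhrs3, which reduces retinal back to retinol and so lowers the substrate for synthesis, rose with quiescence in control cells. Proliferating control cells had 15.6, 3.98 and 7.39 CPM in experiments 5, 7 and 9, and quiescent control cells 55.4, 13.5 and 67.2. Proliferating knockdown cells had 13.5, 6.79 and 7.06 CPM and quiescent knockdown cells 18.0, 5.49 and 28.6. Experiment 7 is the lowest in every group, and the quiescent control library of experiment 7 lies under the proliferating control library of experiment 5. The log2 fold change with quiescence in control cells was 2.33 (edgeR adjusted p = 0.0389, 5.04-fold, SE 0.71). The quiescent library was the higher in 3 of 3 experiments (1.82, 1.73 and 3.17). With experiment as a replicate block the log2 fold change was 2.25 (edgeR adjusted p = 0.00201, SE 0.40). Without the block, the call was lost in 6 of 12 fits that each left out 1 library (adjusted p 0.0175 to 0.130 over the 12). These left out quiescent control 5 or 9, proliferating control 7 or 9, proliferating knockdown 7 or quiescent knockdown 5. In knockdown cells the log2 fold change was 0.93 (edgeR adjusted p = 0.377, SE 0.69), and experiment 7 went the other way (0.41, −0.30 and 2.00). Knockdown against control in quiescent cells gave −1.39 (edgeR adjusted p = 0.460, SE 0.68), lower in 3 of 3 experiments (−1.62, −1.28 and −1.23). With the block this value was −1.36 (SE 0.38) and did not pass (edgeR adjusted p = 0.0782). In proliferating cells knockdown against control gave 0.02 without the block (edgeR adjusted p = 0.9998). The difference between these 2 effects, −1.41, did not pass its own test (edgeR adjusted p = 0.9997).

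Cyp26b1, which oxidises retinoic acid for removal, was at the floor of detection. Its counts were 0, 0 and 1 in proliferating control cells, 1, 0 and 0 in proliferating knockdown cells, 0, 1 and 0 in quiescent control cells and 2 in each quiescent knockdown library. Sums of 1, 1, 1 and 6 counts leave 3 groups under a floor of 3 counts, so no fold is given. Crabp2, which hands retinoic acid to its receptors, had 4, 1 and 3 counts in proliferating control and 6, 5 and 3 in proliferating knockdown libraries. In quiescent cells it had 5, 3 and 77 counts in controls and 8, 1 and 14 with the knockdown. The quiescent control mean of 1.71 ± 2.50 CPM (SD, n = 3) thus rests on experiment 9, and the other libraries of that group overlap with all groups. Neither gene passed the filter, and in a fit of 17575 genes without the filter neither was called in any comparison (for Crabp2 in control cells, log2 fold change 3.44, edgeR adjusted p = 0.0672).

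Of the receptors, Rara and Rarg were well detected and Rarb was not. Rara (chr11:98927818-98974942) stood at 51.9, 59.6 and 49.8 CPM in proliferating control and 52.0, 59.6 and 50.9 in proliferating knockdown cells. In quiescent cells it stood at 56.9, 63.4 and 55.6 CPM in controls and 55.0, 59.9 and 61.6 with the knockdown. All groups overlap. The log2 fold change with quiescence was 0.13 in control cells (edgeR adjusted p = 0.464, SE 0.11) and 0.12 in knockdown cells (edgeR adjusted p = 0.501). Knockdown gave 0.00 in quiescent cells (edgeR adjusted p = 0.994, SE 0.11). With experiment as a replicate block none of these passed (edgeR adjusted p = 0.311, 0.332 and 0.975).

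Rarg (chr15:102234938-102257517, minus strand), the receptor best known from stratified epithelia, was lower in knockdown cells. Quiescent control libraries had 95.1, 97.5 and 95.1 CPM and quiescent knockdown libraries 53.2, 58.1 and 55.3, with no overlap. Rarg fell with the knockdown in quiescent cells by 0.79 on the log2 scale (edgeR adjusted p = 0.0360, 0.579-fold, SE 0.14), in 3 of 3 experiments (−0.84, −0.74 and −0.78). With experiment as a replicate block the log2 fold change was −0.79 (edgeR adjusted p = 0.00779, SE 0.11). Without the block, the size held between −0.82 and −0.76 when 1 library was left out, but the adjusted p ran from 0.0162 to 0.199. It passed in 3 of 12 fits, those without proliferating control 9, proliferating knockdown 5 or proliferating knockdown 9. In proliferating cells the control libraries had 95.0, 112 and 89.8 CPM and the knockdown libraries 72.7, 79.5 and 55.0. These groups do not overlap either, and the log2 fold change was −0.52 (SE 0.14; −0.38, −0.49 and −0.71 by experiment), which did not pass (edgeR adjusted p = 0.9998, and 0.553 with the replicate block). The difference between the knockdown effects in the 2 states was −0.27 and did not pass (edgeR adjusted p = 0.9997). Quiescence gave −0.04 in control cells (edgeR adjusted p = 0.856) and −0.31 in knockdown cells (edgeR adjusted p = 0.136).

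Since both receptors were counted in the same library, their ratio does not depend on library scaling. Rarg counts over Rara counts were 1.83, 1.87 and 1.80 in proliferating control cells and 1.40, 1.33 and 1.08 with the knockdown. In quiescent cells the ratio was 1.67, 1.54 and 1.71 in controls and 0.967, 0.970 and 0.898 with the knockdown. The means were 1.84 ± 0.0357, 1.27 ± 0.168, 1.64 ± 0.0912 and 0.945 ± 0.0407 (SD, n = 3), and no group overlaps with another. An exact two-sided permutation test gave p = 0.1 for each knockdown comparison, the smallest that 3 libraries against 3 allow.

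**Figure D2:**
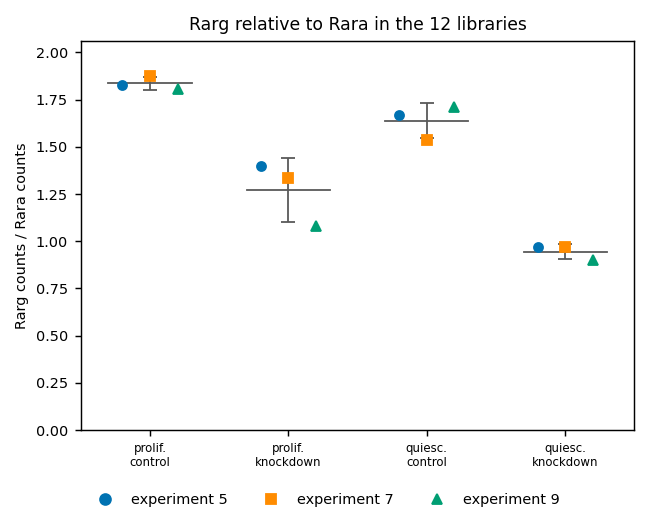
Rarg counts divided by Rara counts in each library, on a linear axis. Symbols are experiments, lines are means and bars are the SD over 3 libraries. The receptor ratio lies between 0.898 and 0.970 in quiescent knockdown cells and between 1.80 and 1.87 in proliferating control cells.

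Rarb, the receptor gene with the DR5 shown above, had 2, 0 and 1 counts in proliferating control and 2, 0 and 2 in proliferating knockdown cells. It had 6, 8 and 19 counts in quiescent control cells and 0, 2 and 7 in quiescent knockdown cells. Each quiescent control library exceeds every proliferating library. Quiescent control and quiescent knockdown libraries are barely apart in CPM, and their raw counts overlap. The lowest control library (experiment 5) had 0.414 CPM from 6 counts, and the highest knockdown library (experiment 9) had 0.410 CPM from 7 counts. The sums of 33 against 3 counts give a rate 12.2 times as high in quiescent as in proliferating control cells (95% interval 3.82 to 62.1, counting error only). The sums of 9 against 33 give 0.232 for the knockdown in quiescent cells (95% interval 0.0978 to 0.496). An exact two-sided permutation test over libraries gave p = 0.1 for both, the smallest possible. For the knockdown this rests on the narrow gap of 0.414 against 0.410 CPM. In the fit of 17575 genes without the filter, neither was called (edgeR adjusted p = 0.0677 and 0.615). Rarb shares 34.1% of its 50-base windows with other genes, all on the opposite strand and mostly with Top2b. If counting ignored strand, this overlap may have changed its few counts, in a direction that was not tested.

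Over the 5 tested genes other than Aldh1a1, 1 was called higher with quiescence in control cells (Dhrs3) and 1 lower with the knockdown in quiescent cells (Rarg). The same tests called 8.33% of the 12406 genes tested higher and 11.7% lower with quiescence in control cells, or 16.8% and 18.5% with experiment as a replicate block. In knockdown cells they called 7.59% higher and 10.8% lower with quiescence, or 15.9% and 17.2% with the block, and none of the 5 genes (with the block 1, Aldh1a3, lower). For the knockdown in quiescent cells they called 0.153% higher and 0.282% lower, or 1.59% and 1.96% with the block. In proliferating cells they called 0% higher and 0.0242% lower with or without the block, and none of the 5 genes. No gene of the table was called for the difference between the knockdown effects in the 2 states (0% each way with and without the block), where edgeR gave 219 genes an unadjusted p under 0.05 and DESeq2 called 6. The 2 quiescence comparisons and the 2 knockdown comparisons share libraries, so their calls are not independent of each other.

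**Figure D3:**
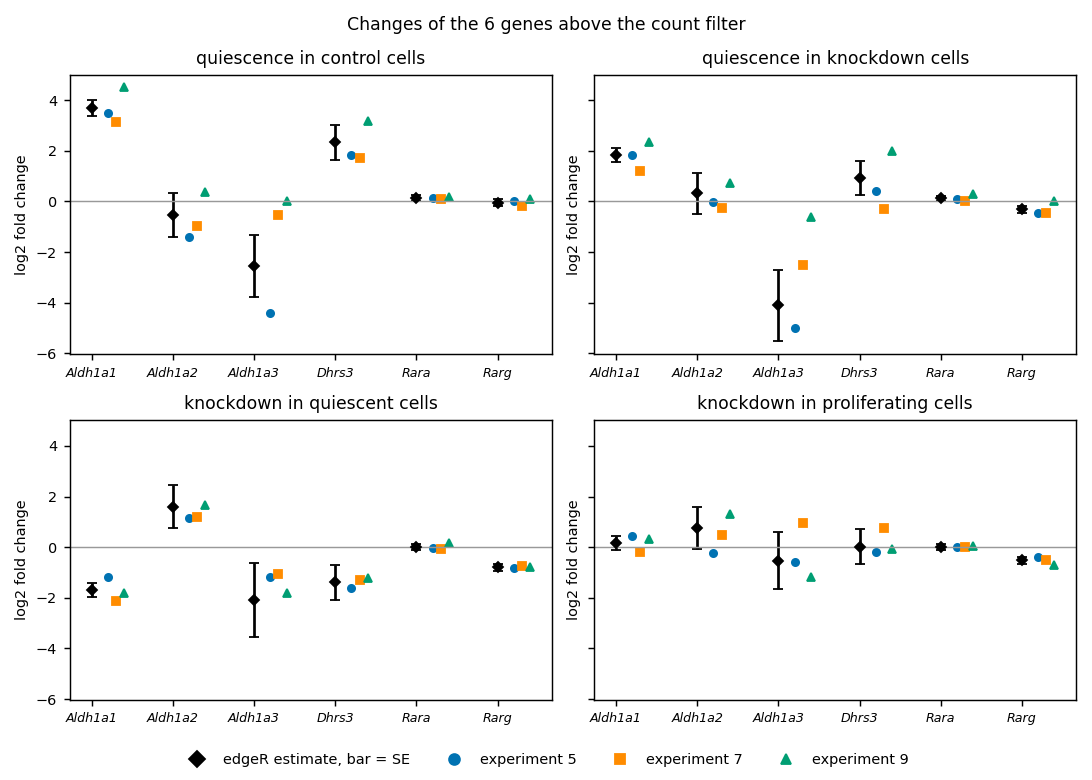
Log2 fold changes of the 6 genes above the filter in 4 comparisons. Diamonds are edgeR estimates with SE bars, and coloured symbols are the values within each experiment. Rarg lies at −0.79 with the knockdown in quiescent cells, and Dhrs3 at 2.33 with quiescence in control cells with experiment 9 highest.

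Per kilobase of merged exon, the order of levels changed with the state. In proliferating control cells Rarg (23.2 ± 2.68 CPM per kb) and Rara (12.3 ± 1.18) stood above Dhrs3 (3.07 ± 2.04), Aldh1a1 (1.10 ± 0.381), Aldh1a3 (0.824 ± 1.11) and Aldh1a2 (0.404 ± 0.171), and neighbours from Dhrs3 to Aldh1a2 overlap. Crabp2 (0.114 ± 0.0643), Rarb (0.0107 ± 0.0107) and Cyp26b1 (0.00354) followed. In quiescent control cells Rarg again had the highest mean (22.5 ± 0.324 CPM per kb), followed by Dhrs3 (15.5 ± 9.65), Aldh1a1 (14.3 ± 2.68) and Rara (13.4 ± 0.964). Dhrs3, Aldh1a1 and Rara do not differ beyond their spread, and in experiment 9 Dhrs3 (23.0) stood above Rarg (22.3). In quiescent knockdown cells Rara (13.5 ± 0.786) and Rarg (13.0 ± 0.585) overlapped, above Dhrs3 (5.93 ± 3.95) and Aldh1a1 (4.43 ± 1.24), which overlap too. Aldh1a2 reached 0.864 ± 0.770 in that group and Aldh1a3 0.0320 ± 0.0274. Divided by the longest transcript instead, Aldh1a1 had the second highest mean in quiescent control cells (29.9 CPM per kb, against 32.5 for Rarg, 19.4 for Dhrs3 and 17.3 for Rara). In experiment 9 it stood above Rarg (36.3 against 32.2).

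Of 56 other genes of the pathway in 5 lists, 54 are in the table and 32 passed the filter. With quiescence in control cells 3 were higher (9.38%) and 4 lower (12.5%), near the 8.33% and 11.7% of all genes tested. With the replicate block 6 (18.8%) and 5 (15.6%) were called, beside 16.8% and 18.5% of all genes. In knockdown cells 4 were higher (12.5%) and 6 lower (18.8%), beside 7.59% and 10.8% of all genes, and with the block 7 (21.9%) and 6 (18.8%), beside 15.9% and 17.2%. The medians of the 32 log2 fold changes were 0.024 and −0.028, beside 0.0047 and 0.0045 over all genes tested. With the knockdown none was called in either state, and with the block 1 was higher and 1 lower in quiescent cells.

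Of the 8 genes of retinol entry and storage only 2 could be tested. Stra6, the membrane receptor that takes up retinol, had 4.60, 1.21 and 1.76 CPM in proliferating control cells and 19.8, 25.7 and 37.6 in quiescent control cells. It had 4.31, 1.49 and 1.89 CPM in proliferating knockdown and 6.89, 14.5 and 27.6 in quiescent knockdown cells. The quiescent groups lie above the proliferating groups without overlap, and experiment 9 is the highest in both. Stra6 rose with quiescence by a log2 fold change of 3.45 in control cells (edgeR adjusted p = 0.00356, SE 0.63) and 2.66 in knockdown cells (edgeR adjusted p = 0.0129). In knockdown cells the call of Stra6 was lost without the proliferating library of experiment 7 or 9 or the quiescent library of experiment 9 (adjusted p at most 0.0567). Dgat1, an acyltransferase that can esterify retinol, rose by 0.59 in control cells (edgeR adjusted p = 0.0296). In knockdown cells its value was 0.43 (edgeR adjusted p = 0.0973, and 0.0390 with the block). The call of Dgat1 in control cells was lost without either control library of experiment 7 or 9 (adjusted p up to 0.112).

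Of the 21 oxidoreductases 11 were tested. Dhrs9, which oxidises retinol, had 41, 63 and 125 counts in proliferating control cells and 3, 8 and 5 in quiescent control cells. It had 26, 48 and 97 counts in proliferating knockdown cells and 17, 12 and 10 in quiescent knockdown cells. Every quiescent library was below every proliferating library, and Dhrs9 fell by 3.67 on the log2 scale in control cells (edgeR adjusted p = 0.00204, SE 0.61) and by 2.25 in knockdown cells (edgeR adjusted p = 0.0177). The call of Dhrs9 in knockdown cells was lost without the proliferating library of experiment 9 or the quiescent library of experiment 5 or 9 (adjusted p up to 0.0733). Rdh5, a retinol dehydrogenase known from the eye, fell by 1.33 in control cells (edgeR adjusted p = 0.0236) and by 1.32 in knockdown cells (edgeR adjusted p = 0.0259), at means of 2.01 ± 0.582 and 0.792 ± 0.180 CPM (SD, n = 3) in proliferating and quiescent control cells. Rdh10, the main retinol dehydrogenase of the embryo, fell by 1.83 in knockdown cells (edgeR adjusted p = 0.0430), from 197 ± 140 to 55.4 ± 12.3 CPM. Rdh14 rose by 0.45 in knockdown cells (edgeR adjusted p = 0.0471), and Aldh1b1 passed there only with the block (log2 fold change 1.57, edgeR adjusted p = 0.229 and 0.0480). With 1 library left out, Rdh5 passed in 8 of 12 fits in control cells (lost without proliferating control 7 or 9 or quiescent control 5 or 9) and in 6 in knockdown cells (lost without any 1 of the 6 knockdown libraries). Rdh10 passed in 4 of 12 fits and Rdh14 in 3, with adjusted p up to 0.156 and 0.139. Rdh10 was lost without any quiescent knockdown library, quiescent control 5 or 9, proliferating knockdown 5 or 9 or proliferating control 9. Rdh14 was lost without any knockdown library, quiescent control 5 or 7 or proliferating control 7. With quiescence in control cells 1 of the 11 was called higher (9.09%, beside 8.33% of all genes), which was Aldh1a7, and 2 were called lower (18.2%, beside 11.7%).

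Of the 4 other carriers and degrading enzymes 1 was tested, and Cyp26a1 and Cyp26c1 had 2 counts and 1 count over all 12 libraries. Fabp5, a fatty acid carrier that can deliver retinoic acid to PPARD, fell with quiescence in knockdown cells by 1.34 (edgeR adjusted p = 0.0194, SE 0.34), from 54.5 ± 12.4 to 21.4 ± 6.61 CPM (SD, n = 3), a call lost without either knockdown library of experiment 9 (adjusted p up to 0.0792). Of 11 receptor partners and cofactors 10 were tested. Ppard, the nuclear receptor served by FABP5, fell by 1.32 in control cells (edgeR adjusted p = 0.00718) and by 1.56 in knockdown cells (edgeR adjusted p = 0.00352). Rxra and the coactivator gene Ncoa1 passed only with the block in control cells, at 0.42 (edgeR adjusted p = 0.290 and 0.0313) and 0.48 (edgeR adjusted p = 0.0521 and 0.0135). Pparg, the target of rosiglitazone, had 5.38, 4.34 and 8.65 CPM in quiescent control and 2.40, 1.79 and 2.29 in quiescent knockdown libraries. These do not overlap, and the log2 fold change of −1.50 (SE 0.43) passed only with the block (edgeR adjusted p = 0.175 and 0.0207).

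Of 16 genes known to be induced by retinoic acid, 10 were tested, and they did not share a direction. With quiescence in control cells 1 was higher (Stra6, 10.0%) and 1 lower (Ret, 10.0%), near the 8.33% and 11.7% of all genes tested. Ret, a receptor kinase of ureteric bud growth, fell by 2.27 in control cells (edgeR adjusted p = 0.0178) and by 1.89 in knockdown cells (edgeR adjusted p = 0.0367). The calls of Ret were lost in control cells without proliferating control 7 or quiescent control 5 or 9 (adjusted p up to 0.0731), and in knockdown cells without any quiescent knockdown library or proliferating knockdown 5 or 7 (up to 0.114). Nr2f2, an orphan nuclear receptor gene, passed only with the block in control cells, at 0.60 (edgeR adjusted p = 0.135 and 0.0459). In knockdown cells Nr2f2 rose by 1.24 (edgeR adjusted p = 0.00959), from 54.5 ± 7.25 to 128 ± 36.9 CPM (SD, n = 3). With the knockdown in quiescent cells Gprc5a, named for its induction by retinoic acid, passed only with the block (log2 fold change 0.70, edgeR adjusted p = 0.113 and 0.0402), at 262 ± 35.5 CPM without and 426 ± 52.7 with the knockdown. The median of the 10 genes was 0.095 with quiescence in control cells and −0.15 with the knockdown in quiescent cells, beside 0.0047 and 0.016 over all genes tested.

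**Figure D4:**
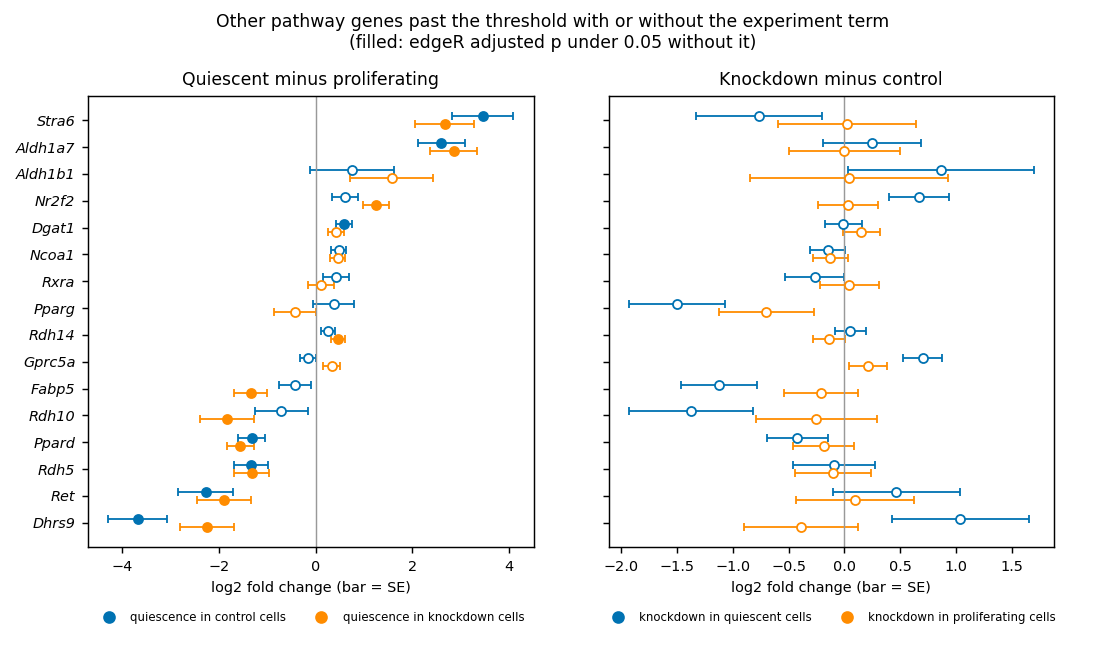
Log2 fold changes with SE bars of 16 other pathway genes past the threshold in a quiescence or knockdown comparison with or without the replicate block; filled points passed without it. Left, quiescent minus proliferating; right, knockdown minus control. Stra6 lies at 3.45 and Dhrs9 at −3.67 in control cells, and no point is filled on the right.

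Across the 12 libraries, the genes whose log2 CPM ran most like that of Aldh1a1 among 10300 candidates were Camsap3 (Pearson r = 0.970), Slc4a4 (0.954), Man2c1 (0.951), Limk2 (0.948) and Mif4gd (0.947). Those nearest to Dhrs3 were Prr13 (0.951), Fut2 (0.940) and Ovol1 (0.917). Nearest to Rara were Tns1 (0.940), D4Wsu53e (0.911) and Zfyve16 (0.905), and nearest to Rarg were Ctnna1 (0.965), Wwp1 (0.957) and Ppap2a (0.947). The 3 neighbours of Rarg were also lower with the knockdown, at log2 fold changes of −1.76, −1.19 and −1.15 in quiescent cells. In proliferating cells their values were −1.02, −0.58 and −0.58. The ranking itself favours genes with such a shared fall. Among the 6 tested genes the closest pair was Aldh1a1 and Dhrs3 at r = 0.744, and Rara with Rarg gave 0.062. These coefficients describe 12 libraries that share groups and experiments, and carry no test.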

How the data were processed

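Per the submitters' processing notes, reads were handled with Bowtie, TopHat, HTSeq and DESeq2 on mm10. Versions, annotation and strand setting are not given in the sources used here, and the kit was a stranded polyA kit, per the labels' protocols. The authors deposited 1 table of raw counts, whole numbers per gene symbol, with 12 library columns. No row lacked a gene name.

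Counts were filtered with filterByExpr (minimum count 10, 12406 genes left), scaled by TMM and fitted with edgeR 4.0.16 quasi-likelihood models (limma 3.58.1, R 4.3.3) over all 12 libraries and 4 group means. Benjamini-Hochberg adjustment ran over all genes tested, with a threshold of 0.05. The SE is the size of the log2 fold change over the root of the F statistic. CPM are TMM-scaled, with a prior count of 2 on the log2 scale. Exon lengths are from GENCODE on GRCm38. The code was tested on simulated data. Alternatives were experiment as a replicate block, DESeq2 1.42.0, median-of-ratios scaling, no filter and leaving out each library.

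Libraries of the same experiment deviated together from their group means (mean correlation 0.526, lowest 0.225, 18 pairs). The labels also give each experiment its own batch, so numbers pair the samples. Tests given without the replicate block did not use this pairing, nor did any fit that left out 1 library. Calls lost in those fits, also for the other pathway genes, are calls of the unpaired fit. With quiescence in control cells 4374 genes were called with the block and 2481 without it. Between different experiments the mean was -0.259 (36 pairs). Deviations from a group mean cancel within the group, so this negative value follows from the positive one and adds no separate evidence. Replicates differed by more than counting noise (chi-square per degree of freedom 29.7 to 81.5). Counting intervals are exact at 95% and cover counting error only.

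The members and lists were chosen with earlier results of these data known. Named genes are all members, Stag2, Aldh1a7, listed pathway genes past the threshold in a quiescence or knockdown comparison with or without the block, the 5 genes most correlated with Aldh1a1 and the 3 most correlated with each other tested member of mean log2 CPM of at least 2. A listed gene that meets this rule is counted but not reported here by name.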

Additional observations from a re-analysis of the deposited data

Results flagged for a closer look

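The values of Dhrs9 with the knockdown had opposite signs in the 2 states, but neither effect was called. Dhrs9 was picked by screening the 6 tested members and 32 other tested pathway genes for such signs, in the knockdown and the quiescence comparisons. The share of all genes with such signs was not counted. The knockdown library was higher in each experiment in quiescent cells (log2 fold changes 1.46, 0.46 and 0.76) and lower in each experiment in proliferating cells (-0.57, -0.33 and -0.35). The fitted effects were 1.04 in quiescent cells (SE 0.61, edgeR adjusted p = 0.562) and -0.39 in proliferating cells (SE 0.51, edgeR adjusted p = 0.9998). The group means were 4.35 ± 2.48 and 3.31 ± 2.06 CPM in proliferating control and knockdown cells and 0.332 ± 0.144 and 0.691 ± 0.0948 CPM in quiescent control and knockdown cells (SD, n = 3). The difference between the effects was 1.43 on the log2 scale and did not pass its test (edgeR adjusted p = 0.9997), and the quiescent values rest on 3 to 17 counts per library.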

How the results depend on the processing

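With experiment as a replicate block, 11 other pathway genes were called with quiescence in control cells, and 2 with the knockdown in quiescent cells (DESeq2 called 3). For the 5 tested members other than Aldh1a1, the block and DESeq2 each called 1 (Aldh1a3) with quiescence in knockdown cells, and the block changed no call of a member but this. Aldh1a3 passed the filter mostly through proliferating libraries and had at most 5 counts in a quiescent knockdown library. With 1 library left out, the filter was applied anew, and calls were counted over the 8 members other than Aldh1a1. With quiescence in control cells this count ran from 0 to 2, with 2 called without quiescent control 7. Of the 5 members tested in the main fit, only Dhrs3 was called in these fits. The count of 2 therefore includes a member that did not pass the filter of the main fit. The count ran from 0 to 1 with quiescence in knockdown cells and from 0 to 1 with the knockdown in quiescent cells. That of other pathway genes ran from 4 to 8 and from 3 to 10 in the 2 quiescence comparisons. Without the filter Rara gave -0.0137 for the knockdown in quiescent cells. Values that were not called crossed 0 when 1 library was left out: Rarg with quiescence in control cells (-0.11 to 0.052), Aldh1a2 with quiescence in knockdown cells (-0.65 to 0.79), Rara with the knockdown in quiescent cells (-0.034 to 0.060), Aldh1a1 (-0.056 to 0.45), Aldh1a3 (-2.42 to 1.61), Dhrs3 (-0.38 to 0.68) and Rara (-0.064 to 0.091) with the knockdown in proliferating cells, and the difference between states for Aldh1a2 (-0.13 to 1.57), Aldh1a3 (-3.69 to 0.34) and Rara (-0.088 to 0.067). The cause was not tested. Depth limits Cyp26b1, Crabp2 and Rarb, whose group sums were between 1 and 85 counts.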
